A study of Mus musculus with 6 samples.

Results

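The 9 genes described here belong to the thick ascending limb of the loop of Henle. They are Umod, Egf, Slc12a1, Kcnj1, Bsnd, Ptger3, Cldn10, Cldn16 and Cldn19, chosen by symbol from the 24422 genes counted in each library, and every one of them was found. The counts come from poly-A RNA of whole mouse kidneys, with 3 Control and 3 TfR1 knockout libraries. All 6 kidneys were C57BL/6, were taken at postnatal day 13 and came from mice on an iron sufficient diet with 220 ppm iron. The genotype label of the Control kidneys is wild type, and that of the knockout kidneys is Tfr1f/f;SixCre, in which both copies of the gene for transferrin receptor 1 (Tfrc, also written TfR1) carry loxP sites around exons that Cre removes. Six2Cre works in the progenitors that form the nephron from glomerulus to distal tubule, whereas the collecting duct grows from the ureteric bud and keeps the gene. The study also reports tubule cells that apparently escaped Cre. It describes the controls of its sequencing as wild type littermates.

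The thick ascending limb takes salt out of the tubule fluid but holds back water, which dilutes the fluid and builds the salt gradient of the medulla. Sodium, potassium and chloride enter together through the cotransporter NKCC2, potassium leaks back into the lumen through ROMK, and chloride leaves the cell through channels that need barttin. The resulting voltage across the wall drives sodium, calcium and magnesium between the cells through claudin pores, and the same cells make uromodulin, the main protein of normal urine.

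Total counts ran from 16591156 to 22898008 per library. Tfrc itself did not pass the test (log2 fold change 0.11, SE 0.29, DESeq2 adjusted p 0.853), and a count over the whole gene cannot show that a pair of exons was lost, so it does not check the labels. Control replicate 3 stood apart in its cell type markers. The summed normalized counts of 4 stromal markers were 91984 there, against 46483 and 44177 in Control replicates 1 and 2, and those of 7 proximal tubule markers were 52868 against 103630 and 102040. Of the 9 thick ascending limb genes, 8 had their lowest Control value in that library, as did 43.9% of all genes tested. Results are therefore given with and without it. The part that this library's makeup plays in the values was not tested.

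In knockout kidneys 8 of the 9 genes were lower than in Control kidneys and none was higher, where a call needs a fold of 2 or more together with a DESeq2 adjusted p below 0.05. Over all 16509 genes tested, the same rule called 4.46% lower and 4.41% higher. The median log2 fold change of the 9 genes was -1.47, beside 0.0071 over all genes tested. edgeR's quasi-likelihood test, given beside DESeq2 for each of the 9 genes, called 6 of the 9 lower, against 2.31% of its 15308 genes called lower and 2.48% called higher. It did not call Slc12a1, Cldn19 or Ptger3. Without Control replicate 3, DESeq2 also called 8 of the 9 lower, with a median of -1.68, and edgeR called 7. edgeR's count was 3 without Control replicate 1, Control replicate 2, knockout replicate 2 or knockout replicate 3, where Egf, Kcnj1 and Bsnd were not called. The normalized counts of the groups did not overlap for 8 of the 9 genes, all lower in the knockout, a pattern found in that direction for 16.9% of genes. The 9 genes together made up 0.582%, 0.637% and 0.308% of the counts of Control replicates 1 to 3, and 0.109%, 0.128% and 0.0895% of those of knockout replicates 1 to 3. In whole kidney RNA, fewer thick ascending limb cells and less RNA per cell cannot be told apart.

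**Figure D1:**
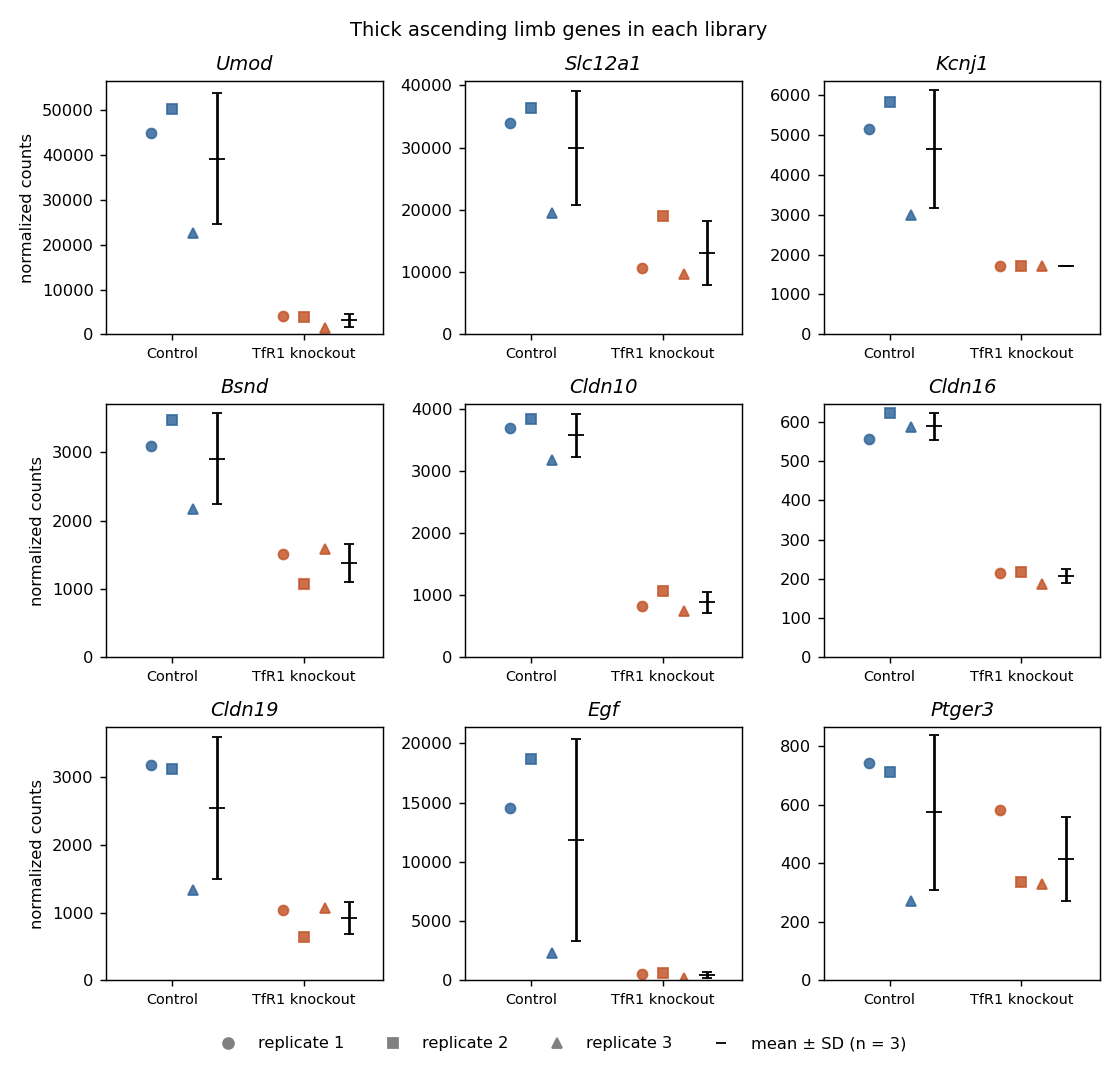
Normalized counts (DESeq2 size factors, linear axes from 0) of the 9 thick ascending limb genes in each of the 6 libraries, with marker shapes for replicates 1 to 3 and the mean ± SD of each group (n = 3). For every gene but Ptger3 all knockout points lie below all Control points, and Control replicate 3 is the lowest Control point for every gene but Cldn16.

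The bases just upstream of the start site are shown for the 2 genes with the largest falls, Egf and Umod, for the claudin with the largest fall, Cldn10, and for Slc12a1, which fell less. They come from the RefSeq start sites on GRCm38.p6, which held 11 windows for 8 of the 9 genes and none for Bsnd. Each window holds the 250 bases before the start, at chr3:129755323-129755572 on the minus strand for Egf, chr7:119479263-119479512 on the minus strand for Umod, chr14:118787621-118787870 on the plus strand for the first of the start sites of Cldn10, and chr2:125152350-125152599 on the plus strand for Slc12a1. The window at the other start site of Cldn10 is not shown, and which form of claudin-10 each site makes was not tested.
Egf: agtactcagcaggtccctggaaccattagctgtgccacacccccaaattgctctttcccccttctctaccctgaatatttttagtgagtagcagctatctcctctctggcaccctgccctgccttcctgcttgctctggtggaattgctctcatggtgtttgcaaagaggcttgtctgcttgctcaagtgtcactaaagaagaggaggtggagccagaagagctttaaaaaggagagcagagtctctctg
Umod: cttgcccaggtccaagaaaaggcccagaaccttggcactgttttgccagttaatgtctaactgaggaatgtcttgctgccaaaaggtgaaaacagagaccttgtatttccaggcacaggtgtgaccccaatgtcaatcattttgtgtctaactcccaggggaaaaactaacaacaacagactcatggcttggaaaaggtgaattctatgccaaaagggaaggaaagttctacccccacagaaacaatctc
Cldn10: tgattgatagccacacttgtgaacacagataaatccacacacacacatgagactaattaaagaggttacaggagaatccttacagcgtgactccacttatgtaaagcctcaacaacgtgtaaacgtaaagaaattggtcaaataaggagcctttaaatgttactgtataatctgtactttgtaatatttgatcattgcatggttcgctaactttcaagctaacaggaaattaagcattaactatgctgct
Slc12a1: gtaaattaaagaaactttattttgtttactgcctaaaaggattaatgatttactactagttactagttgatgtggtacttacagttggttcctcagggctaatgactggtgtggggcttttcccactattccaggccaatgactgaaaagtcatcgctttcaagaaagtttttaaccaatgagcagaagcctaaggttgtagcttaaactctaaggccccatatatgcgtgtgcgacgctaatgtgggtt
The ERR site AAGGTCA, which the estrogen-related receptors read and which was sought on both strands, was in 0 of the 11 windows and in 4.08% of all 32851 windows of this length. The TATA box TATAAA, sought on the strand of the gene, was also in 0 of the 11 windows and in 7.59% of all windows. These letters in these windows are all that was searched, so no base is in capitals.

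The 2 secreted proteins had the largest fold changes of the 9. Umod encodes uromodulin, which coats the tubule lumen and protects against stones and urinary infection. It had 44916, 50178 and 22552 normalized counts in Control replicates 1 to 3, and 4012, 3892 and 1475 in knockout replicates 1 to 3. The highest knockout kidney was far below the lowest Control kidney. The mean fell from 39215 ± 14669 to 3126 ± 1431 (SD, n = 3 each), and the knockout mean was 12.5-fold lower (log2 fold change -3.65, SE 0.42, DESeq2 adjusted p 1.16e-15, edgeR adjusted p 0.0101). Without Control replicate 3 the log2 fold change was -3.93. Umod lies on the minus strand of chromosome 7, from 126606380 to 126622769 on mm9, the build of the counts.

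Egf encodes the precursor of epidermal growth factor, a membrane protein that is shed into the urine and that also acts on magnesium uptake further along the nephron. Its Control values were 14570, 18709 and 2314 normalized counts, and its knockout values were 559, 622 and 152. Control replicate 3 was far below the other Control kidneys, yet above every knockout kidney. The mean of 11864 ± 8526 was 26.7-fold higher than the knockout mean of 444 ± 255 (log2 fold change -4.74, SE 0.94, DESeq2 adjusted p 1.99e-05, edgeR adjusted p 0.0263). The Control kidneys spanned 8.08-fold, a spread that only 0.264% of the 12114 genes with a mean of 100 or more normalized counts matched or passed, and its SE was the largest of the 9. The log2 fold change was -5.23 without Control replicate 3 and -4.25 at the other end of the range over single libraries left out. Egf, on chromosome 3 (129380493 to 129458240, minus strand), is also transcribed in the distal convoluted tubule.

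The salt entry and exit genes fell by less. Slc12a1 encodes NKCC2, the target of loop diuretics, and is the most specific transport gene of this segment. It had 34025, 36446 and 19534 normalized counts in Control replicates and 10602, 19046 and 9677 in knockout replicates. The highest knockout value, replicate 2, was just under the lowest Control value, replicate 3. The means of 30002 ± 9146 and 13108 ± 5163 differed 2.29-fold in DESeq2 (log2 fold change -1.19, SE 0.34, adjusted p 0.00617), a call that edgeR did not make (-1.21, adjusted p 0.0854). Without Control replicate 3 it was -1.43 (DESeq2 adjusted p 0.000238). DESeq2's call was lost without Control replicate 1 (adjusted p 0.0694), Control replicate 2 (0.0782) or knockout replicate 3 (0.0708). The gene is on the plus strand of chromosome 2, from 124978241 to 125055738.

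Kcnj1 encodes ROMK, the potassium channel that returns potassium to the lumen so that NKCC2 can keep working. Control kidneys had 5142, 5835 and 3001 normalized counts, and knockout kidneys had 1712, 1720 and 1722. The knockout values (mean 1718, SD 4.83) all lay below the Control values (4659 ± 1477). Raw knockout counts were 1722, 1344 and 1820. An SD this small is below the counting error at such counts, so it does not measure how alike the kidneys were. The fall was 2.71-fold (log2 fold change -1.44, SE 0.27, DESeq2 adjusted p 3.43e-06, edgeR adjusted p 0.0192), and -1.68 without Control replicate 3. Kcnj1 (chromosome 9, 32180003 to 32206777, plus strand) is also expressed in the distal convoluted tubule and in principal cells of the collecting duct.

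Bsnd encodes barttin, the subunit that carries chloride channels to the basolateral membrane. Its normalized counts were 3094, 3470 and 2164 in Control kidneys and 1510, 1066 and 1578 in knockout kidneys. The groups did not overlap, but the fall was the smallest of the 8 called genes, from 2909 ± 673 to 1384 ± 278, or 2.10-fold (log2 fold change -1.07, SE 0.26, DESeq2 adjusted p 0.000675, edgeR adjusted p 0.0379). It was -1.25 without Control replicate 3 and dropped under 2-fold without Control replicate 2 (-0.93) or knockout replicate 2 (-0.91). Bsnd, on chromosome 4 (106156061 to 106164888, minus strand), is also a gene of the distal convoluted tubule and of intercalated cells.

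Ptger3 encodes the EP3 receptor, through which prostaglandin E2 dampens salt transport and the response to vasopressin. It had 740, 710 and 269 normalized counts in Control kidneys and 580, 334 and 328 in knockout kidneys. The lowest value of all 6 was that of Control replicate 3, so the groups overlapped. The difference between 573 ± 264 and 414 ± 144 was smaller than the spread (log2 fold change -0.47, SE 0.42, DESeq2 adjusted p 0.494, edgeR adjusted p 0.478). Without Control replicate 3 it was -0.81 (DESeq2 adjusted p 0.0649). Ptger3 lies on chromosome 3, from 157229856 to 157307722 on the plus strand.

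All 3 claudins were called lower by DESeq2. Cldn10 encodes claudin-10, whose form in the thick ascending limb makes the sodium pore between cells. It had 3705, 3848 and 3188 normalized counts in Control kidneys and 833, 1075 and 744 in knockout kidneys. The values within each group lay close together and far from those of the other group. The mean fell 4.05-fold, with 3580 ± 347 in Control and 884 ± 171 in knockout kidneys (log2 fold change -2.02, SE 0.20, DESeq2 adjusted p 1.25e-20, edgeR adjusted p 0.00252), and -2.10 was found without Control replicate 3. A second form of claudin-10 is made in the proximal tubule, and counts per gene (chromosome 14, 119187093 to 119274711, plus strand) do not separate the forms.

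Cldn16 and Cldn19 encode the pair of claudins that form the calcium and magnesium route of this segment, and loss of either causes magnesium wasting. Cldn16 had 555, 624 and 586 normalized counts in Control kidneys and 215, 217.5 and 185 in knockout kidneys. It was the one gene of the 9 for which Control replicate 3 did not have the lowest Control value. Its mean fell 2.86-fold, with 588 ± 34.4 in Control and 206 ± 17.8 in knockout kidneys (log2 fold change -1.52, SE 0.18, DESeq2 adjusted p 4.71e-15, edgeR adjusted p 0.00442). Its range over single libraries left out was narrow, from -1.56 to -1.44. Cldn16 (chromosome 16, 26463221 to 26482851, plus strand) lies 6.13 Mb from Tfrc on the same chromosome, so alleles linked to the floxed locus cannot be told apart from the knockout.

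Cldn19 had 3179, 3123 and 1329 normalized counts in Control kidneys and 1043, 644 and 1074 in knockout kidneys. Control replicate 3 was closer to the knockout kidneys than to the other Control kidneys, but still above them. The mean went from 2544 ± 1052 to 920 ± 240.0, a 2.76-fold fall by DESeq2 (log2 fold change -1.47, SE 0.37, adjusted p 0.00124) that edgeR did not call (adjusted p 0.0554). Without Control replicate 3 the value was -1.78 and edgeR did call it (adjusted p 0.0187). Cldn19 is on chromosome 4, from 118928019 to 118935043 on the plus strand.

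**Figure D2:**
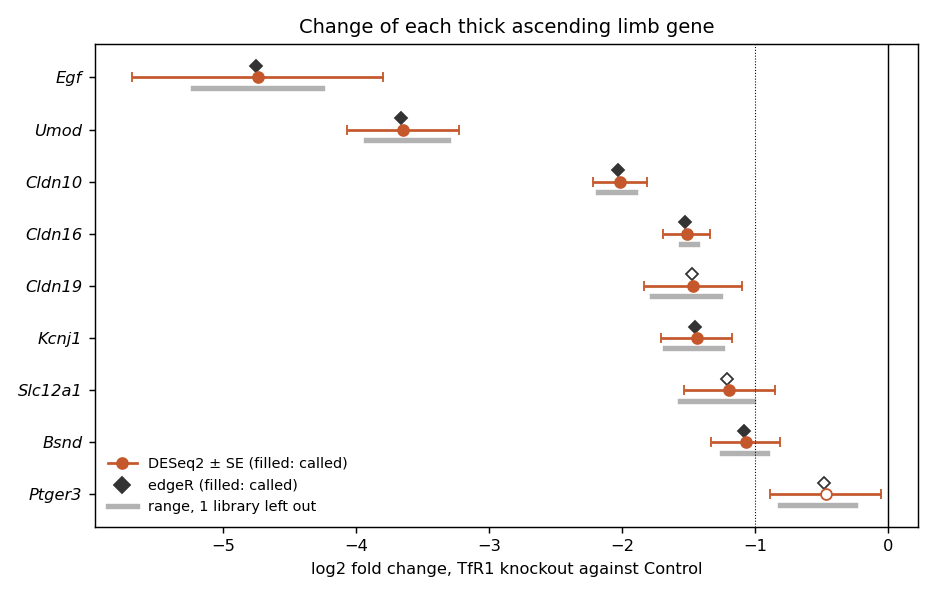
Log2 fold change (knockout against Control, 3 libraries each) of the 9 genes from DESeq2 with its SE (circles) and from edgeR (diamonds), filled where the tool called the gene. Grey bars span the DESeq2 values with 1 library left out, the dotted line is a 2-fold fall, and the genes run from Egf (-4.74) to Ptger3 (-0.47) with all values and all grey bars below 0.

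Because the genes differ in length, their levels were compared as normalized counts per kb of exon. In Control kidneys Umod was highest (15864 ± 5934 per kb), above Slc12a1 (5206 ± 1587 per kb) in all 3 libraries and without overlap. Egf came next in the mean (2480 ± 1782 per kb), but its range overlapped those of Slc12a1 and Kcnj1. Kcnj1 (1427 ± 452 per kb), Cldn10 (1362 ± 132 per kb) and Bsnd (1056 ± 244 per kb) followed, each overlapping its neighbour. Cldn19 (597 ± 247 per kb) lay below Bsnd without overlap and could not be separated from Cldn16 (501 ± 29.3 per kb). Ptger3 was lowest, at 126 ± 57.9 per kb, with no overlap with Cldn16.

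In knockout kidneys Slc12a1 headed the order at 2275 ± 896 per kb, above Umod at 1265 ± 579 per kb in all 3 libraries and without overlap. Kcnj1 (526 ± 1.48 per kb), Bsnd (502 ± 101 per kb) and Cldn10 (336 ± 65.0 per kb) came next, and neighbours among these 3 overlapped. Cldn19 (216 ± 56.3 per kb) and Cldn16 (176 ± 15.2 per kb) also overlapped each other. Egf moved from the third place to near the bottom, at 92.9 ± 53.3 per kb, where it overlapped Ptger3 at 90.8 ± 31.5 per kb.

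**Figure D3:**
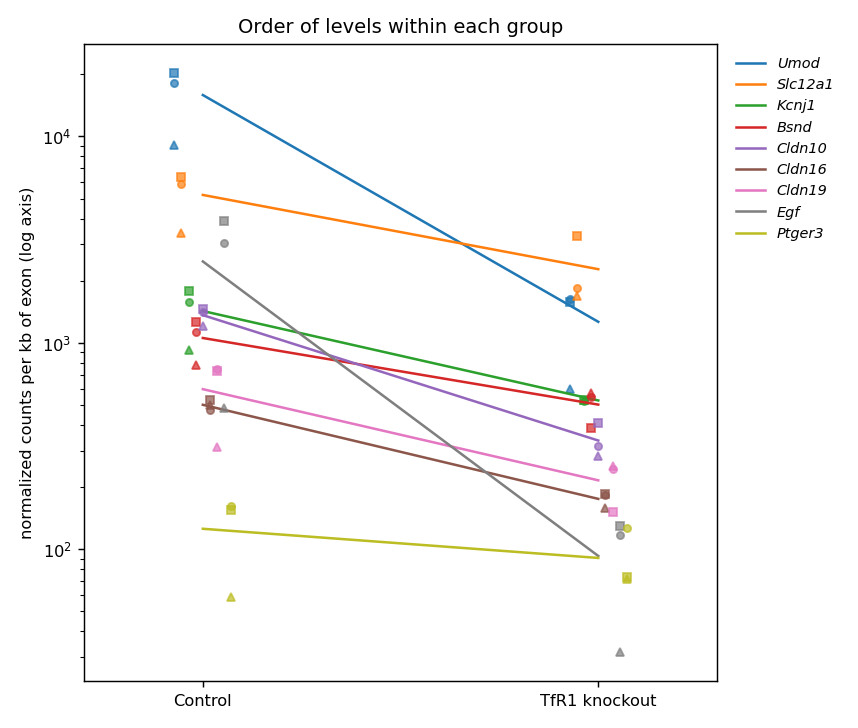
Normalized counts per kb of exon (log axis) of the 9 genes in Control and knockout kidneys, with points for the libraries (circle, square and triangle for replicates 1 to 3) and lines joining the group means. The lines of Umod and Slc12a1 cross, and that of Egf drops from the third highest to next to the lowest level.

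The share of Umod within the 9 genes was steady in Control kidneys and low in knockout kidneys. It took 40.9%, 40.8% and 41.1% of their counts in Control replicates 1 to 3, so Control replicate 3 had fewer counts of these genes but the same share of Umod. In knockout replicates 1 to 3 it took 19.0%, 13.6% and 8.71%. Slc12a1 took 31.0%, 29.6% and 35.6% in Control replicates and 50.3%, 66.6% and 57.1% in knockout replicates.

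Ratios to Slc12a1 within a library do not depend on how libraries are scaled, and they ask whether the genes fell unequally. Of 9 ratios compared (the other 8 genes to Slc12a1, and Cldn16 to Cldn19), 7 were lower and 2 higher in knockout kidneys. With 3 kidneys against 3 the exact two-sided permutation test cannot give a p below 0.1, so no ratio can pass 0.05. Umod per kb stood at 3.08, 3.21 and 2.69 times Slc12a1 in Control replicates and at 0.882, 0.476 and 0.355 times in knockout replicates. That is a 5.63-fold lower ratio without overlap (log2 difference -2.49, exact permutation p 0.1, adjusted 0.3).

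Egf per kb stood at 0.516, 0.618 and 0.143 times Slc12a1 in Control replicates and at 0.0635, 0.0393 and 0.0190 times in knockout replicates. The ratio was 9.87-fold lower without overlap (log2 difference -3.30, exact permutation p 0.1, adjusted 0.3), although the ratio in Control replicate 3 was also low. Cldn10 was the third gene without overlap (log2 difference -0.82, exact permutation p 0.1, adjusted 0.3). The other ratios overlapped between groups. Their log2 differences were -0.17 for Kcnj1, 0.15 for Bsnd, -0.31 for Cldn16, -0.19 for Cldn19 and 0.83 for Ptger3 against Slc12a1, and -0.12 for Cldn16 against Cldn19. Knockout replicate 2, the one with the highest Slc12a1, had the lowest ratio of its group for Kcnj1, Bsnd, Cldn10, Cldn16, Cldn19 and Ptger3.

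**Figure D4:**
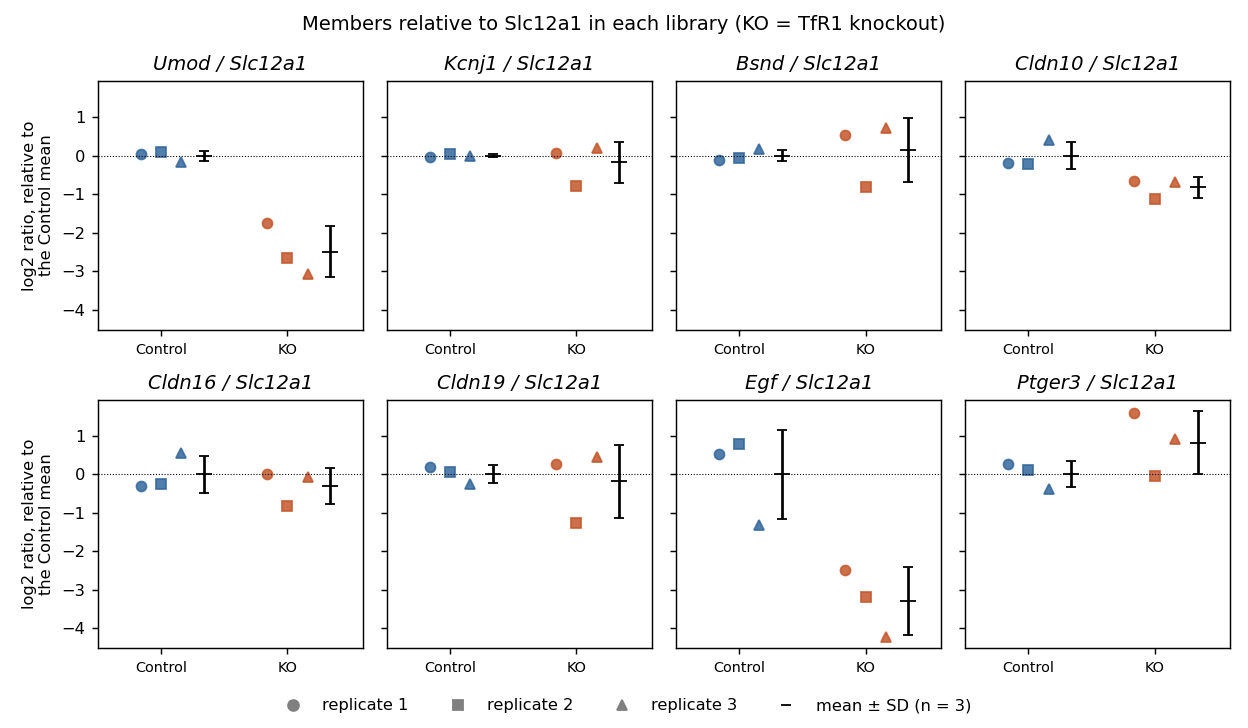
Log2 ratio per kb of each gene to Slc12a1 in each library, relative to the Control mean (dotted line at 0), with the mean ± SD of each group (n = 3). Umod, Egf and Cldn10 lie below 0 in all 3 knockout libraries without overlap with Control, and the other 5 genes overlap.

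The genes whose pattern was most like those of Umod and Slc12a1 were sought among the 12114 genes that averaged 100 or more normalized counts. Likeness was the root-mean-square distance over the 6 libraries between log2 values set relative to the Control mean. The 5 nearest to Umod were Abca13 (distance 0.242), Kap (0.313), Slc12a3 (0.350), Slc6a12 (0.402) and Slc10a1 (0.431), with log2 fold changes of -3.93, -3.62, -3.98, -3.27 and -4.14. Slc12a3 encodes NCC, the salt cotransporter of the distal convoluted tubule, and Kap is an androgen-regulated gene of the proximal tubule. The nearest of the 9 was Egf, at rank 25 (distance 0.841). The 5 nearest to Slc12a1 were Mreg (0.145), Klhl3 (0.161), Wnk1 (0.188), Sim2 (0.195) and Slc26a4 (0.204). Their log2 fold changes were -1.03, -1.15, -1.09, -1.48 and -1.18, and that of Mreg did not pass (DESeq2 adjusted p 0.0703). Kcnj1, at rank 40 (distance 0.330), was the nearest of the 9 to Slc12a1. Because values were set relative to the Control mean, a small distance needs a like fold change. The fold changes of the nearest genes are therefore no separate result. These distances describe 6 libraries and carry no test.

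Most of the other genes listed for this segment, or for uromodulin and EGF, were not called. Of 40 genes in 5 lists, DESeq2 called 8 lower and 2 higher, where it called 4.46% of all genes tested lower and 4.41% higher. Their median log2 fold change was 0.01, beside 0.0071 over all genes tested, and edgeR called 4 lower and 2 higher of the 39 it tested. Without Control replicate 3, DESeq2 called 11 lower and 2 higher, and edgeR 8 lower and 2 higher. Trpm6, among those called lower by both tools, is a gene of the distal convoluted tubule. Among 13 salt transport partners, 2 were lower. Kcnj10, a basolateral potassium channel, fell by 1.33 on the log2 scale (DESeq2 adjusted p 0.00213, edgeR adjusted p 0.0566), and Wnk1, a kinase upstream of the salt cotransporters, fell by 1.09 (DESeq2 adjusted p 0.000322, edgeR adjusted p 0.0393). Kcnj10 is also used by the distal convoluted tubule. Kcnj16, its partner subunit, had 8505, 9530 and 7164 normalized counts in Control kidneys and 8926, 10196 and 8703 in knockout kidneys. The groups overlapped (log2 fold change 0.14, DESeq2 adjusted p 0.647).

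Among 9 receptor and signalling genes, 1 was lower and 1 higher. Gcgr, the glucagon receptor, had 586, 650 and 347 normalized counts in Control kidneys and 165, 49.9 and 83.2 in knockout kidneys. It fell by 2.40 on the log2 scale (DESeq2 adjusted p 2.59e-06, edgeR adjusted p 0.0289), and the groups were well apart. Ptgs2, which encodes the prostaglandin synthase COX-2 of the macula densa and nearby thick ascending limb, rose from 43.7, 28.2 and 34.4 normalized counts in Control kidneys to 115, 98.5 and 117 in knockout kidneys (log2 fold change 1.64, DESeq2 adjusted p 1.2e-05, edgeR adjusted p 0.0240). Casr, the calcium-sensing receptor, had a log2 fold change of -0.58 (DESeq2 adjusted p 0.219). It lies on chromosome 16 (36493782 to 36562227), as Tfrc does, so the limit given for Cldn16 holds for Casr too. Sorl1, a sorting receptor that acts on NKCC2, had a log2 fold change of 0.90, under the 2-fold limit (DESeq2 adjusted p 0.0341, edgeR adjusted p 0.113).

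Among 5 paracellular genes the same split was seen, with 1 lower, 1 higher and 3 that did not pass. Tmem207 neighbours Cldn16 on chromosome 16 (26503879 to 26526857), so alleles linked to the floxed locus cannot be told apart from the knockout here either. It had 307, 337 and 116 normalized counts in Control kidneys and 30.8, 21.8 and 1.89 in knockout kidneys (log2 fold change -3.81, DESeq2 adjusted p 2.82e-06, edgeR adjusted p 0.0358). Cldn3, a sealing claudin found in several distal segments, went the other way. It rose from 275, 314 and 191 normalized counts in Control kidneys to 1142, 974 and 1174 in knockout kidneys (log2 fold change 2.08, DESeq2 adjusted p 8.56e-16, edgeR adjusted p 0.00441). Of the 2 tight junction genes Tjp1 and Ocln, neither passed (log2 fold changes 0.20 and 0.22), and Cldn14 had under 12 normalized counts in every library.

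Of 6 genes that act with uromodulin or EGF, 2 were lower. Gp2, the closest relative of uromodulin, was measured at 103, 156 and 31.2 normalized counts in Control kidneys and at 22.9, 11.5 and 13.2 in knockout kidneys (log2 fold change -2.60, DESeq2 adjusted p 0.000709, edgeR adjusted p 0.0532). Trpm6, the magnesium channel of the distal convoluted tubule that EGF acts on, fell by 2.07 on the log2 scale (DESeq2 adjusted p 8.77e-09, edgeR adjusted p 0.0123). Hpn, the protease that releases uromodulin, stood at 0.0071 (DESeq2 adjusted p 0.994), and Egfr, the EGF receptor, at 0.29 (DESeq2 adjusted p 0.495). Of 7 transcription factors, Esrrb (-1.83, DESeq2 adjusted p 0.000776) and Irx1 (-1.14, DESeq2 adjusted p 0.0132) were lower in DESeq2 but not in edgeR (adjusted p 0.0552 and 0.0835). Irx2 (-0.89, DESeq2 adjusted p 0.0713, edgeR adjusted p 0.139), Pou3f3, Esrrg and Ppargc1a did not pass.

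**Figure D5:**
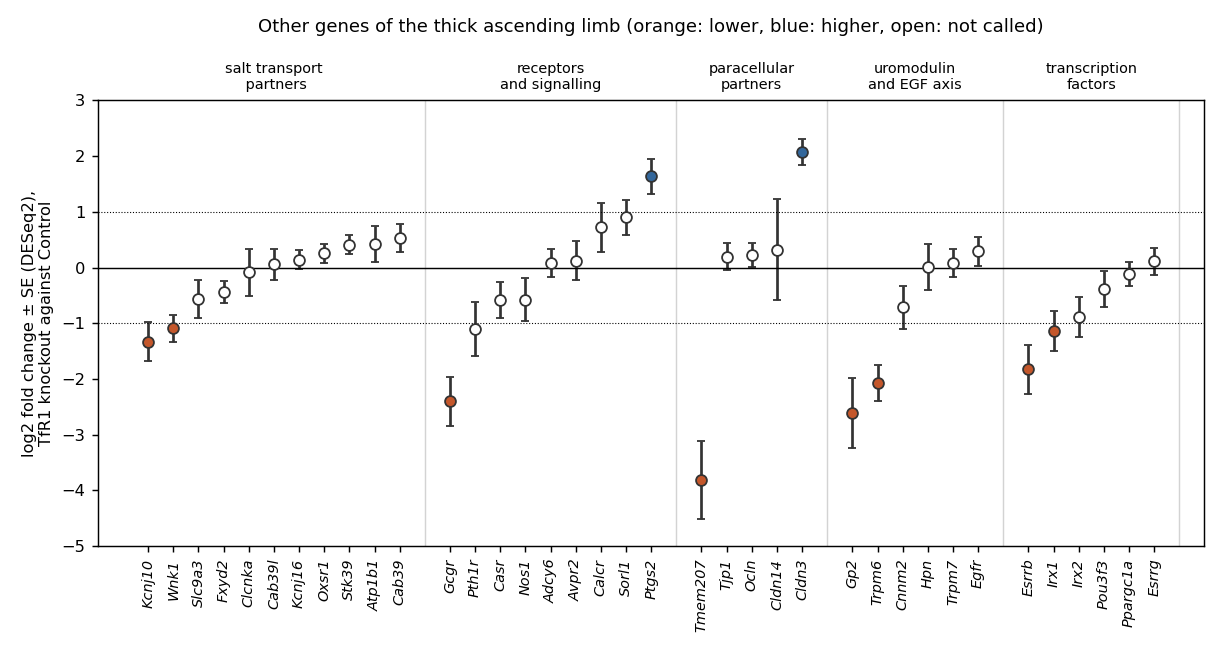
DESeq2 log2 fold change ± SE (knockout against Control, 3 libraries each) of 37 of the 40 other listed genes in 5 lists. Trpm6 among them is a gene of the distal convoluted tubule. Called genes are filled (orange lower, blue higher), with dotted lines at 2-fold and a solid line at 0. Most points lie between the dotted lines, 8 are called lower and 2, Ptgs2 and Cldn3, are called higher.

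Marker lists of other cells are given as values, since several of them differed between the groups. Over all genes tested, DESeq2 called 4.46% lower and 4.41% higher, and edgeR 2.31% lower and 2.48% higher. The numbers of markers called that follow are those of DESeq2. edgeR called 1 proximal tubule marker lower and 1 higher, and 1 principal cell marker higher. It called 2 intercalated cell markers lower and 0 higher, and 0 stromal markers lower. For the other marker lists edgeR called as many as DESeq2. Of 4 markers of the distal convoluted tubule 3 were lower, with a median log2 fold change of -3.03. The normalized counts of the 4 summed to 18844 to 36496 in Control and to 8234 to 14534 in knockout kidneys. Most of each knockout sum came from Calb1, the 1 marker not called (log2 fold change -0.09). The log2 fold changes of the 3 called lower were -3.98 for Slc12a3, -6.42 for Pvalb and -2.07 for Trpm6. Trpm6 stands in both that list and the EGF list. Of 7 proximal tubule markers 2 were lower and 1 higher (median -0.57, sums 52868 to 103630 against 43782 to 62224). Of 4 thin limb markers 1 was lower (median -0.77, sums 4809 to 11044 against 3966 to 6480). Of 6 principal cell markers none was lower, 2 were higher and 4 were not called (median 0.58, sums 8202 to 17359 against 33526 to 61657). Most of each knockout sum came from Aqp2, with 17805, 50719 and 23564 normalized counts in knockout replicates 1 to 3. Its Control values were 5747, 5581 and 2409, so the sums do not show a rise of the 6 markers alike. Of 6 intercalated cell markers 2 were lower and 1 higher (median -0.37). Of 5 podocyte markers 1 was higher (median 0.15), as was 1 of 3 nephron progenitor markers (median 0.75). The progenitor markers had few counts, with overlapping sums of 44.1 to 124 against 101 to 141, and edgeR tested only 2 of the 3. Of 5 macrophage markers 2 were higher (median 1.04, sums 1403 to 1855 against 2244 to 3034). Stromal markers (1 of 4 lower) summed to 44177 to 91984 against 23457 to 44615, and endothelial markers (0 of 4 called by either tool) to 9827 to 15948 against 11057 to 13116. The 9 thick ascending limb genes summed to 54937 to 122940 normalized counts in Control kidneys and to 16935 to 28615 in knockout kidneys. The part of these shifts in the falls described above was not tested.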

How the data were processed

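RNA libraries from 6 kidneys (3 Control, 3 TfR1 knockout) were read as single ends. Per the labels and the study's methods, the authors used CASAVA 1.8.2, Trimmomatic and TopHat2 2.0.11 on mm9 and counted uniquely aligned reads with HTSeq. The deposited values are raw counts per gene, not normalized. The annotation and strand setting are not given in the sources used here, so reads of overlapping genes on opposite strands may not be separated.

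Groups came from the sample labels. The study gives 3 mice per model, so the samples were taken as separate mice. Counts of all 24422 genes were fitted in R 4.3.3 with DESeq2 1.42.0 (Wald test, median-ratio size factors, no covariate, Benjamini-Hochberg adjustment, independent filtering at 0.05), the tool and limits of the study. This gave 16509 genes an adjusted p, with a lowest mean of 3.51 normalized counts. The fit called 736 genes lower and 728 higher, more in each direction than the study reports for this model. The reason was not tested. edgeR 4.0.16 was run on genes kept by its own filter on low counts, and limma 3.58.1 with voom was an alternative. Counting error is small for genes with many reads, and their precision is set mainly by having 3 libraries in each group. Counting error is larger for genes with few reads, such as Tmem207, with raw counts of 31, 17 and 2 in knockout replicates 1 to 3.

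The genes named are the 9 members, the genes of preset lists, and the 5 nearest in pattern to Umod and to Slc12a1 among genes that averaged 100 or more normalized counts, after adding 1 on the log2 scale. The 9 genes, the lists and the tests were chosen with earlier results of these data known. Gene positions and exon lengths came from the GENCODE annotation of mm9 (NCBIM37), and the upstream sequences from RefSeq on GRCm38.p6, 250 bases per start site. Values of some listed genes are not reported here, though the counts per list hold them. The code was tested on simulated data. Alternatives were other scalings and filters, a null of at most 2-fold, the replicate number as a block, and each library left out. Leaving out each library in edgeR was chosen after seeing the data.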

Additional observations from a re-analysis of the deposited data

How the results depend on the processing

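Over all alternatives the log2 fold changes of the 9 genes kept their direction: 151 values stayed on the same side of the call, 38 lost it and 0 reversed. By edgeR or by limma-voom 6 of the 9 genes were lower, and 4 of the 40 other listed genes were lower by either. Against a null of at most 2-fold, 3 of the 9 genes (Umod, Cldn10 and Egf) and, of the other genes, 1 lower and 1 higher remained called. With 1 library left out, DESeq2 called 6 to 8 of the 9 genes lower and, of the others, 6 to 11 lower and 2 to 4 higher. The 4 higher genes came without Control replicate 2, Sorl1 among them. edgeR then called 3 to 7 of the 9 genes lower and, of the others, 0 to 8 lower and 1 to 2 higher. It called 3 of the 9 without Control replicate 1 or 2 or knockout replicate 2 or 3, 5 without knockout replicate 1 and 7 without Control replicate 3. The median of the 9 genes ran from -1.69 to -1.29 over the libraries left out. Shares of all genes called were counted for the DESeq2 and edgeR fits of all 6 libraries only. Whether calls over all genes dropped alike under the other settings was not tested.

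The ratios kept their sign in 57 values and reversed in 6, all among ratios that overlapped between groups. With 1 library left out the log2 difference to Slc12a1 ran from -0.36 to 0.13 for Kcnj1 (reversed without knockout replicate 2), from -0.50 to 0.36 for Cldn19 (reversed without knockout replicate 2) and from -0.14 to 0.63 for Bsnd (reversed without knockout replicate 1, at -0.046, or 3). That of Cldn16 to Cldn19 ran from -0.40 to 0.30 and reversed without Control replicate 3 or, at 0.086, knockout replicate 3. The causes were not tested.

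Deviations of same-numbered samples correlated at -0.0378, 0.0548 and 0.0899, and those of other pairs at -0.217 to 0.0972. Such values cannot decide whether the numbers pair the kidneys. A replicate block lowered the SE of Umod from 0.42 to 0.20 and that of Egf from 0.94 to 0.24. It raised the SE of Cldn16 from 0.18 to 0.26 and that of Cldn10 from 0.203 to 0.208. With the replicate block 8 of the 9 genes, and 8 lower and 2 higher of the others, were called, with a median of -1.40 for the 9 genes. Scaling by total counts shifted the median of all genes to -0.097, and the same 8 of the 9 genes were called.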
